A study of Mus musculus with 20 samples.

Results

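DSS colitis was compared with healthy colon in mice that all received the same probiotic. The 8 arrays are the 4 titled colitis with probiotic and the 4 titled healthy with probiotic, out of 20 arrays in the series, and no measured value entered that choice. Each array holds total RNA from the middle part of the colon of 1 female C57BL/6JOlaHsd mouse of about 11 weeks. All 8 mice received by stomach tube a mixture of the bacterial strains L930BB and IM386 in 100 µl of saline. The labels place this dosing before and then alongside DSS, and they do not say on which days the healthy mice were dosed. The 4 colitis mice (numbers 3, 5, 7 and 8) drank 3% dextran sulphate sodium (DSS, 40 kDa) for 5 days in a row, and the 4 healthy mice (numbers 4, 5, 6 and 7) drank water without it. Equal numbers in the 2 groups belong to different mice. Of the other groups, 4 saline healthy and 4 saline colitis mice are used below for a second colitis comparison. The 4 cyclosporine colitis mice enter only the shared estimate of spread, the filter on dim probe sets and the choice of probe set per gene. As a model, the comparison is one chemical injury of the colon in 1 sex and 1 inbred strain. The day of sampling and the cage of each mouse are not given in the labels, which house mice 5 to a cage.

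DSS is a sulphated polymer that damages the lining of the colon and lets luminal bacteria reach the tissue below. Resident macrophages and injured epithelium then release cytokines and chemokines, neutrophils and monocytes enter from the blood, and lymphocyte-derived interferon gamma switches on antigen presentation genes. In parallel the epithelium loses mature absorptive cells, spreads over the wound and is rebuilt from the crypts. Colonocytes normally burn butyrate and other fatty acids, absorb salt and water, and break down foreign compounds. Loss of these functions is a known feature of the inflamed colon.

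Values are log2 expression, so a difference of 1 is a 2-fold change. Changes are given as colitis minus healthy with the standard error of the fit, for n = 4 mice per group, and a gene was called when its adjusted p in limma was under 0.05. Signal over background and the number of arrays limit the precision, since arrays have no read depth. Array medians of the series lay between 6.22 and 6.29 and no arrays were identical. Correlations of array pairs were 0.989 to 0.992 within the healthy group, 0.976 to 0.993 within the colitis group and 0.932 to 0.976 between them. The leucocyte gene Ptprc lay at 7.91 to 8.42 in healthy and 10.31 to 10.95 in colitis mice (2.58 ± 0.29), while the epithelial gene Epcam lay at 11.93 to 11.95 and 11.83 to 11.95 (-0.07 ± 0.06, adjusted p = 0.433). The mucin gene Muc2 was at 13.39 to 13.46 and 13.54 to 13.67. Its change of 0.19 ± 0.07 passed narrowly (adjusted p = 0.0438), a call lost without any 1 of healthy mice 4 to 7 or colitis mice 3, 7 and 8 (adjusted p = 0.0542 to 0.12). The smooth muscle gene Myh11 (12.03 to 12.20 and 11.37 to 12.01) showed that the samples hold the muscle wall as well as the mucosa. The tissue markers of colon were thus present on every array.

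Colitis mouse 8 stood apart from the other 3 colitis mice. On the first principal component of the 8 arrays (76.0% of the variance) the healthy mice lay at -32.9 to -25.8, colitis mice 3, 5 and 7 at 36.4 to 36.9, and mouse 8 at 6.80. Mouse 8 also had the extreme score, 21.8, on the second component (6.61%). Counts or medians are therefore also given without this mouse where it moves them, and its own value is given beside the genes described by mouse.

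Of 16739 genes tested, 2280 rose (13.6%) and 2689 fell (16.1%) in colitis, 29.7% in either direction. Changes of at least 2-fold were more frequent upward, with 575 genes higher (3.44%) and 163 lower (0.974%). Among genes that passed, the 4 arrays of one group did not overlap the 4 of the other for 1930 that rose (11.5% of those tested) and 2253 that fell (13.5%). The median change over all genes was -0.04, and 42.3% of genes had a change above 0. Without mouse 8, 2457 rose and 2850 fell, of which 2166 and 2474 were also called with it.

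The largest rises included genes known from epithelium, neutrophils and B cells, and cytokine genes. Plet1, a surface protein of wound-associated epithelium, was at 8.65, 7.54, 6.98 and 6.90 in healthy mice 4 to 7 and at 12.81, 12.60, 12.71 and 11.60 in colitis mice 3, 5, 7 and 8. Every colitis array exceeded every healthy one, and the change was 4.91 ± 0.35 (30.1-fold, adjusted p = 7.63e-08). Clca4b, a member of the family of calcium-activated chloride channel regulators, was spread over 9.05, 7.28, 6.87 and 5.65 in healthy mice but lay tightly at 13.05, 12.96, 12.97 and 12.79 in colitis. Its change, 5.73 ± 0.73 (53.1-fold, adjusted p = 1.28e-05), was the largest among the genes named for size. Cd177, a surface glycoprotein of neutrophils, was at 8.31, 8.17, 8.15 and 7.83 against 11.12, 11.12, 11.16 and 11.37, with mouse 8 the highest of the colitis mice (3.08 ± 0.21, 8.44-fold, adjusted p = 5.42e-08). Epithelium can also express Cd177, and its cell of origin was not tested. Dhrs9, a retinol and steroid dehydrogenase, rose by 3.28 ± 0.43 and the CD20 gene of B cells, Ms4a1, by 3.04 ± 0.51. The complement receptor of follicular dendritic cells and B cells, Cr2, rose by 3.04 ± 0.45. Of the other genes named for size, Sirpb1c (3.33), BE692007 (3.21), Ly6i (3.19), Khdc1a (3.15) and Il1a (3.08) had healthy means below the filter level of 5.30, where background compresses a change. BE692007 lay below that level on every healthy array, saline or probiotic. Among healthy arrays Il1a exceeded it only in probiotic mouse 5 (5.38). Both genes needed colitis arrays to enter the tests, so their rises were favoured by the filter. Sirpb1c, Ly6i and Clca4b belong to families of similar genes, whose probes may respond to relatives. Because these are pieces of whole tissue, fewer cells of a type and less RNA per cell cannot be told apart in any result here.

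**Figure D1:**
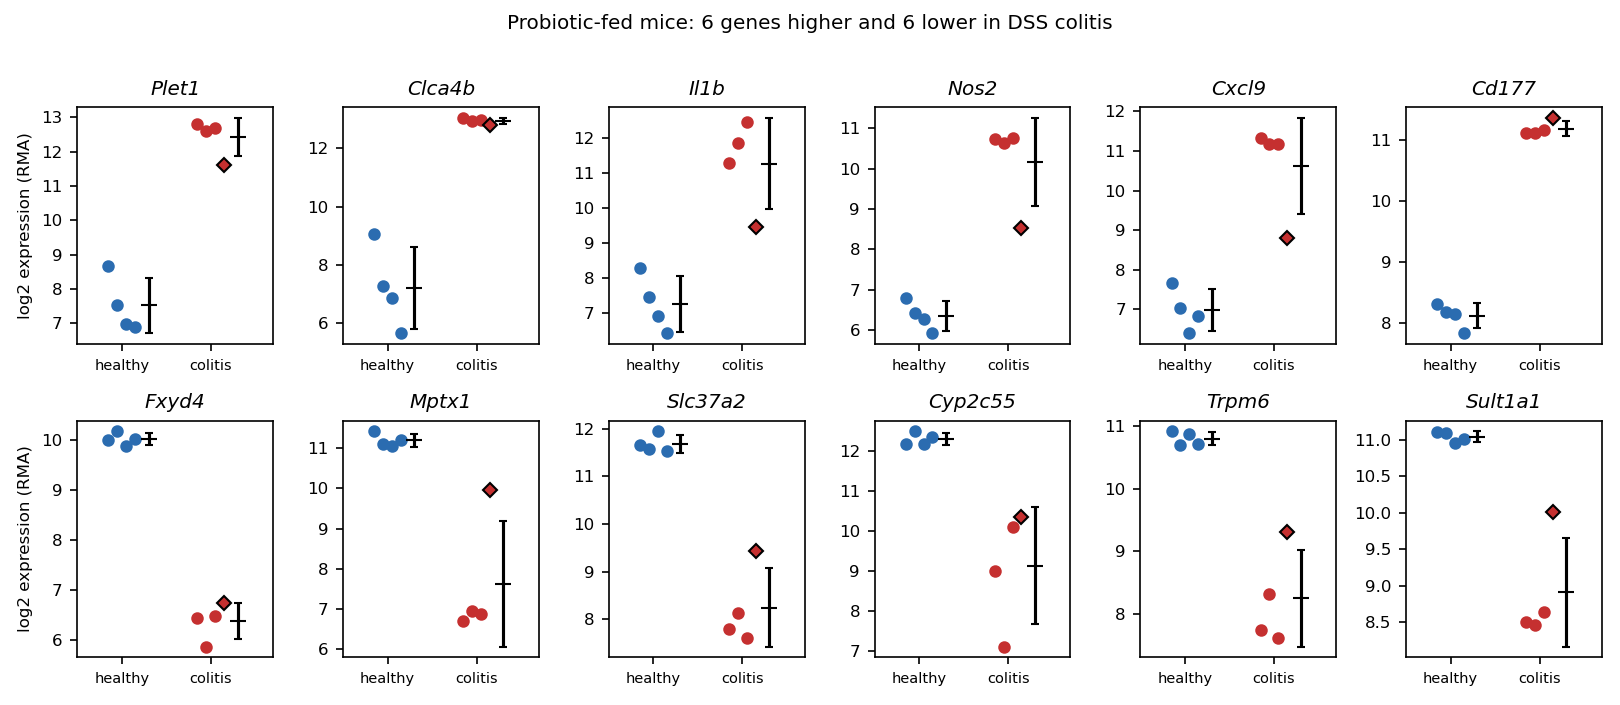
Log2 expression (RMA) of 6 genes that rose and 6 that fell, 1 point per mouse, healthy in blue and colitis in red, with mouse 8 as an outlined diamond and bars for mean ± SD (n = 4). Cd177 lay at 11.12 to 11.37 in all 4 colitis mice, while Nos2 in mouse 8 (8.53) lay between the healthy mice (5.92 to 6.80) and the other 3 (10.64 to 10.75).

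The largest falls included genes for transporters, enzymes and secreted proteins of the epithelium. Fxyd4, a regulator of the sodium pump, was at 10.02, 10.18, 9.89 and 10.02 in healthy mice and at 6.43, 5.86, 6.47 and 6.73 in colitis. It fell in every colitis mouse to a similar level (-3.65 ± 0.29, 12.6-fold lower, adjusted p = 1.61e-07). Mptx1, a pentraxin of the gut epithelium, was at 11.41, 11.09, 11.04 and 11.20 against 6.70, 6.96, 6.89 and 9.96, so that mouse 8 lay nearer to the healthy mice (-3.56 ± 0.52, adjusted p = 4.38e-05). The sugar phosphate transporter gene Slc37a2 (-3.42 ± 0.33), the magnesium channel gene Trpm6 (-2.55 ± 0.25) and the phosphate transporter gene Slc20a1 (-2.03 ± 0.23) fell. Sycn, which encodes syncollin, a protein of secretory granules, fell from 12.05, 12.24, 12.40 and 12.13 to 9.41, 9.31, 9.26 and 10.21 (-2.66 ± 0.18, adjusted p = 4.14e-08). The epithelial gasdermin genes Gsdmc2 (-2.06 ± 0.32) and Gsdmc3 (-2.17 ± 0.27) fell together, although probes of these close relatives may not separate them. Hao2, a peroxisomal hydroxyacid oxidase, fell by 2.19 ± 0.27 on the log2 scale. Naaladl1, a peptidase of the intestinal surface, fell by 2.05 ± 0.15.

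Gene lists for cell types and pathways of the colon were then read one by one, each by its counts and its median beside the 13.6% of all genes that rose, the 16.1% that fell and the median of -0.04. The lists are not tests, since they were chosen with earlier results of these data known. Some members, among them Gzma, Gzmb, Ctla4, Fpr2 and H2-DMb1, lay below the filter level of 5.30 on every healthy array. They entered the tests only through colitis arrays, so their rises in the counts below were favoured by the filter.

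**Figure D2:**
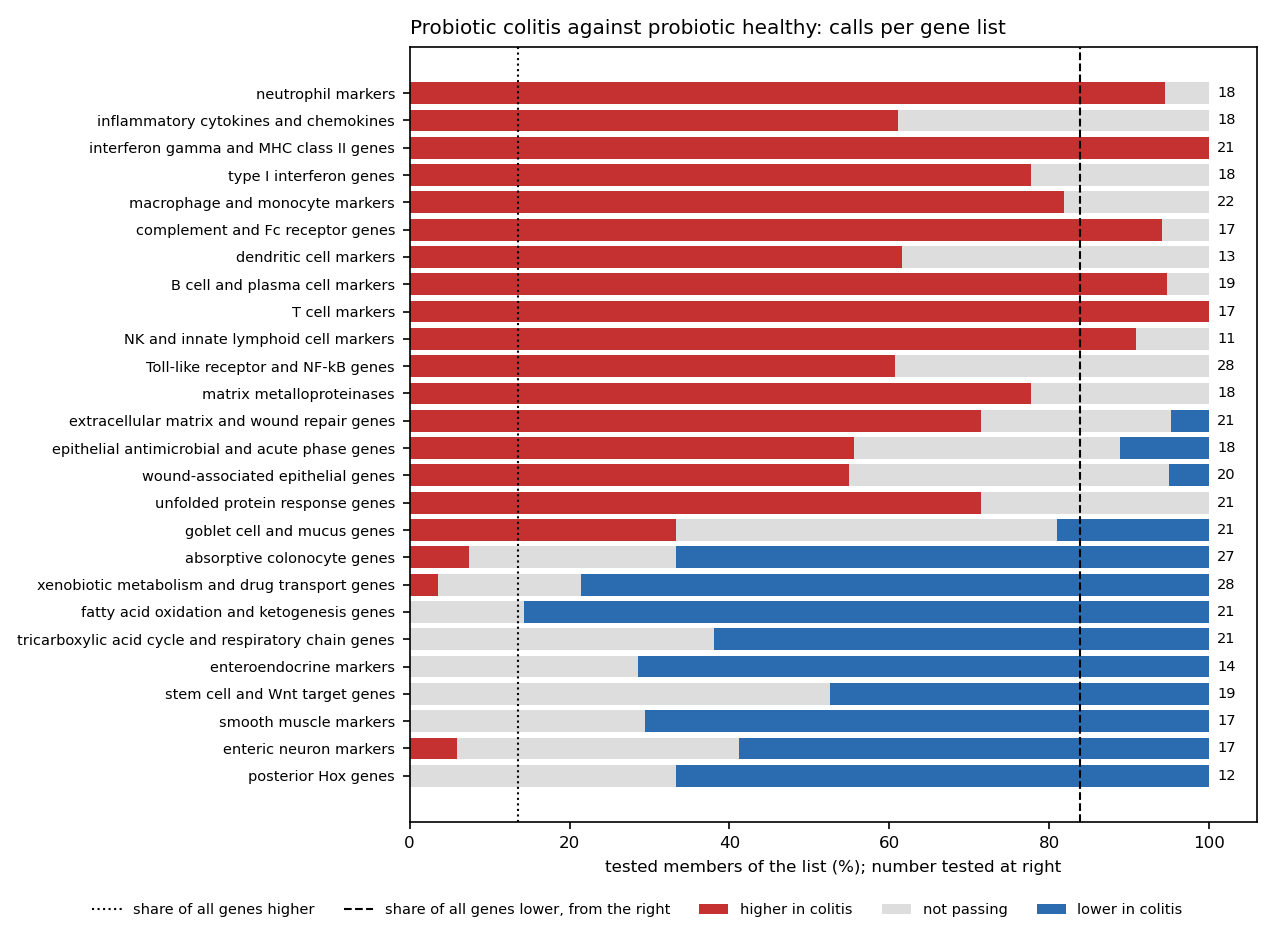
Share of the tested members of 26 gene lists that rose (red), fell (blue) or did not pass (grey) in probiotic colitis, with the number tested at the right. The dotted line marks the 13.6% of all genes that rose, and the dashed line, read from the right edge, the 16.1% that fell; all 21 interferon gamma and MHC class II genes and all 17 T cell markers rose, and 22 of 28 xenobiotic genes fell.

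Inflammatory cytokines and chemokines rose in colitis. Of 18 tested genes 11 rose and 0 fell, with a median of 1.34 (1.71 without mouse 8). Il1b, the main inflammasome cytokine, was at 8.30, 7.46, 6.93 and 6.43 in healthy mice and at 11.30, 11.88, 12.48 and 9.46 in colitis. The groups did not overlap and mouse 8 was the lowest colitis array (4.00 ± 0.71, 16-fold, adjusted p = 0.000284). Nos2, the inducible nitric oxide synthase, was at 6.80, 6.42, 6.27 and 5.92 against 10.73, 10.64, 10.75 and 8.53 (3.81 ± 0.43, 14-fold, adjusted p = 4.69e-06). Tnf, the tumour necrosis factor gene, was at 6.97, 6.50, 7.25 and 6.57 against 9.07, 9.33, 9.32 and 8.18 (2.15 ± 0.24, adjusted p = 3.77e-06). The neutrophil chemokine gene Cxcl5 (2.75 ± 0.47) and the monocyte chemokine gene Ccl2 (1.75 ± 0.38) rose. Not every chemokine passed. Of the following, Ccl3 and Cxcl2 were named after their values were seen. Ccl3, a macrophage chemokine, was at 5.91 to 6.53 in healthy mice and 7.18, 8.66, 10.26 and 6.25 in colitis (1.96 ± 0.85, adjusted p = 0.0927), and Cxcl2, a neutrophil chemokine, at 4.56 to 5.30 and 6.42, 6.95, 8.26 and 4.93 (1.69 ± 0.64, adjusted p = 0.0545). In both genes mouse 7 was the highest and mouse 8 lay among the healthy mice. The other 4 members were too dim on most arrays to be tested. Il6 was at 3.37 to 3.87 and then 4.82, 4.90, 5.44 and 3.62, and Cxcl3 at 3.52 to 3.97 and then 4.93, 5.91, 7.29 and 3.31. Il17a was dim in both groups (4.56 to 4.78 and 4.90 to 5.48), with every colitis array above every healthy one. Il22 was dim with overlapping groups (2.00 to 2.10 and 2.09 to 2.34).

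Neutrophil markers had the highest median of the 44 lists, 2.21 (2.82 without mouse 8), with 17 of 18 tested genes higher and 0 lower. The mean of the list lay at 5.87 to 6.44 in healthy mice, at 8.46 or higher in colitis mice 3, 5 and 7, and at 6.56 in mouse 8. The receptor gene of granulocyte colony-stimulating factor, Csf3r, was at 6.34, 6.36, 6.31 and 6.44 against 9.36, 9.29, 9.50 and 7.16 (2.47 ± 0.43, adjusted p = 0.000256). The chemokine receptor gene Cxcr2 was at 6.03 to 6.55 against 9.52, 9.22, 9.73 and 6.71 (2.52 ± 0.52, adjusted p = 0.00115). In both, mouse 8 exceeded the highest healthy mouse by less than it fell short of the other colitis mice. The oxidase subunit gene Ncf1 (1.86 ± 0.28), the formyl peptide receptor gene Fpr2 (2.46 ± 0.56) and the lactoferrin gene Ltf (1.92 ± 0.42) rose. The calprotectin genes S100a8 (3.01 ± 0.82, adjusted p = 0.00877) and S100a9 (2.41 ± 0.66, adjusted p = 0.00879), named after their values were seen, rose with overlapping groups. S100a8 was at 4.35 to 6.47 in healthy mice and 9.70, 8.75, 9.53 and 5.66 in colitis, so mouse 8 lay inside the healthy range.

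Macrophage and monocyte markers rose, 18 of 22 with 0 lower and a median of 1.19 (1.37 without mouse 8). Clec7a, the beta-glucan receptor dectin-1, was at 6.46, 6.97, 6.40 and 6.91 in healthy mice and 9.63, 9.72, 9.71 and 8.61 in colitis (2.73 ± 0.29, 6.63-fold, adjusted p = 2.45e-06). Ccr2, the receptor by which monocytes leave the blood, was at 6.68, 6.62, 6.62 and 6.39 against 9.32, 8.95, 9.12 and 7.79 (2.22 ± 0.26, adjusted p = 5.83e-06). The pore-forming gene Mpeg1 (2.19 ± 0.19), the lysozyme gene Lyz2 (1.72 ± 0.22) and Aif1 (1.40 ± 0.12), a calcium-binding protein of activated macrophages, rose. The general macrophage genes Adgre1 (1.12 ± 0.16) and Csf1r (1.21 ± 0.20), and the 4 members that did not pass, were named after their values were seen. The scavenger receptor gene Cd163 was at 6.47 to 6.75 and 6.04 to 6.57 (-0.28 ± 0.20, adjusted p = 0.342), the efferocytosis receptor gene Mertk at 8.78 to 9.19 and 8.61 to 9.03 (-0.25 ± 0.13, adjusted p = 0.164), and the mannose receptor gene Mrc1 at 8.83 to 9.09 and 8.95 to 9.67 (0.40 ± 0.21, adjusted p = 0.167). Timd4, a receptor for dying cells, was at 5.98 to 6.79 and 6.31 to 6.74 (0.17 ± 0.23, adjusted p = 0.636). In these 4 genes the groups overlapped. Of the 13 dendritic cell markers 8 rose and 0 fell, with a median of 0.73. They included the integrin gene Itgax (1.15 ± 0.13), the signal-regulatory gene Sirpa (1.30 ± 0.20), the transcription factor gene Irf8 (0.95 ± 0.14) and the cytokine receptor gene Flt3 (0.73 ± 0.10). Complement and Fc receptor genes rose too, 16 of 17 with 0 lower and a median of 1.15. The low-affinity IgG receptor genes Fcgr4 (2.84 ± 0.36) and Fcgr2b (1.77 ± 0.23), the high-affinity receptor gene Fcgr1 (2.00 ± 0.27) and the complement genes C4b (1.65 ± 0.18) and C2 (1.10 ± 0.14) were among them.

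Lymphocyte markers rose in all 4 colitis mice, mouse 8 included. All 17 tested T cell markers rose, with a median of 1.07 (1.09 without mouse 8). The T cell receptor subunit gene Cd3g was at 6.08, 6.16, 5.89 and 5.95 in healthy mice and 8.59, 8.87, 8.40 and 8.23 in colitis (2.50 ± 0.27, 5.66-fold, adjusted p = 3.2e-06). The costimulators Icos (1.48 ± 0.18) and Cd28 (1.07 ± 0.14), the inhibitory receptor gene Ctla4 (1.37 ± 0.18) and the interleukin 2 receptor gene Il2ra (1.24 ± 0.18) rose. Of 11 markers of natural killer and innate lymphoid cells 10 rose and 0 fell, with a median of 0.75. The cytotoxic granule genes Gzmb (2.08 ± 0.29) and Gzma (1.86 ± 0.29) and the activating receptor gene Klrk1 (1.15 ± 0.16) rose, and several of these genes are shared with cytotoxic T cells. In healthy mice Gzmb (4.58 to 5.13) and Gzma (4.69 to 4.81) lay below the filter level of 5.30. B cell and plasma cell markers rose in 18 of 19 cases, with 0 lower and a median of 1.62 (1.71 without mouse 8). Ms4a1 was at 7.58, 7.21, 6.18 and 6.24 in healthy mice and 9.89, 10.19, 9.61 and 9.66 in colitis. The B cell adaptor gene Bank1 was at 7.53, 7.57, 6.48 and 6.97 against 10.10, 10.19, 9.84 and 9.70 (2.82 ± 0.41, adjusted p = 3.98e-05). In both, healthy mice 4 and 5 were the higher healthy arrays and mouse 8 matched the other colitis mice. The plasma cell genes Mzb1 (1.83 ± 0.25), Irf4 (1.61 ± 0.26) and Prdm1 (1.55 ± 0.13) and the B cell coactivator gene Pou2af1 (1.78 ± 0.26) rose. Genes of the lymphoid follicle stroma rose beside them, 8 of 10 with 0 lower and a median of 0.97. Cxcl13, the chemokine that draws B cells into follicles, was at 10.64, 9.70, 8.94 and 9.45 against 12.09, 12.01, 12.08 and 11.90 (2.34 ± 0.33, adjusted p = 3.43e-05). The lymphotoxin gene Ltb (1.87 ± 0.32), the adhesion gene Vcam1 (1.69 ± 0.25) and the B cell survival factor gene Tnfsf13b (0.98 ± 0.14) rose. The mean of the B and plasma cell list lay at 6.88 to 7.42 in healthy mice and at 8.80 to 9.01 in colitis, and the part of follicles in it was not tested. Among 8 markers of mast cells and eosinophils 5 rose and 1 fell, including as higher the mast cell protease genes Mcpt1 (1.22 ± 0.28) and Mcpt2 (0.87 ± 0.21), close relatives whose probes may overlap. The 1 lower call was lost without any 1 of healthy mice 4 to 7 and colitis mice 3, 5 and 7.

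Genes responsive to interferon gamma rose in every tested case, and type I interferon genes in most. All 21 tested interferon gamma and MHC class II genes were higher, with a median of 1.58 (1.80 without mouse 8). The list mean lay at 7.47 to 7.84 in healthy mice, 8.57 in mouse 8 and up to 9.86 in the others. Cxcl9, a T cell chemokine induced by interferon gamma, was at 7.66, 7.04, 6.39 and 6.83 in healthy mice and 11.33, 11.18, 11.17 and 8.80 in colitis (3.64 ± 0.56, 12.4-fold, adjusted p = 6.98e-05). The peptide transporter gene Tap1 was at 8.32, 8.34, 8.10 and 8.39 against 10.38, 10.53, 10.45 and 9.28 (1.87 ± 0.21, adjusted p = 3.87e-06). Mouse 8 was the lowest colitis array in both, above all healthy mice. The immunoproteasome genes Psmb8 (1.54 ± 0.17) and Psmb9 (1.45 ± 0.16), the MHC class I activator gene Nlrc5 (1.94 ± 0.22), the class II genes H2-Eb1 (1.53 ± 0.17) and H2-DMb1 (1.39 ± 0.17) and the guanylate-binding protein gene Gbp8 (2.91 ± 0.25) rose. The interferon-induced GTPase genes, named after their values were seen, Igtp (2.29 ± 0.41) and Irgm1 (1.58 ± 0.26) rose, with mouse 8 at 7.50 and 7.31 against healthy ranges of 6.45 to 7.39 and 6.57 to 6.91. Of 18 type I interferon genes 14 rose and 0 fell, with a median of 0.92 (1.13 without mouse 8). They included the nucleic acid sensor genes Zbp1 (2.06 ± 0.22) and Ddx58 (1.03 ± 0.12), the oligoadenylate synthetase genes Oas2 (1.54 ± 0.28) and Oas3 (0.93 ± 0.19), and, named after its values were seen, the ubiquitin-like modifier gene Isg15 (1.08 ± 0.28, adjusted p = 0.0065).

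Promoters were then searched for the DNA elements that interferons are known to act through. The interferon-stimulated response element was searched, as GAAA, any 2 bases, GAAA, on both strands of the 250 bases before each start site, for the 10664 tested genes with a single RefSeq promoter window (assembly GRCm38.p6). It was present in 2.65% of all these promoters, in 5.65% of those of genes that rose, in 11.5% (41 of 356) of those that rose at least 2-fold and in 1.79% of those that fell. Among the 114 promoters of genes that fell at least 2-fold 0 held it. It was present in 4 of 12 promoters of the interferon gamma list and 5 of 11 of the type I list. A second interferon element, the gamma-activated site (TTC, any 3 bases, GAA), was present in 6.37% of all promoters and 10.4% of those that rose at least 2-fold. The kappa B element (GGGA, any 4 bases, CC) was present in 21.8% of all promoters and 22.8% of those that rose at least 2-fold. The gamma-activated site was in 3 of 12 promoters of the interferon gamma list and 0 of 11 of the type I list. In all, 7 motifs were searched on both strands, and 1 of them is given with the unfolded protein response. The HNF4 motif (CAAAG followed by TCCA) was in 0.375% of all promoters, 1.69% of those that rose and 0.877% of those that fell at least 2-fold. The CDX motif (TTTAT, any base, G) was in 7.41%, 13.8% and 15.8%, and the E2F motif (TTTCC followed by CGC) in 1.58%, 0.843% and 0%. A match is a run of letters, not a measured binding site. The 150 bases before the start of 3 genes are shown because they hold such a match, 5′ to 3′ on the strand of the gene, with the matches to the response element in capitals. Matches overlap one another in Irgm1 and Isg15, where the capitals cover 2 and 3 of them.
Igtp, chr11:58199406-58199555, plus strand: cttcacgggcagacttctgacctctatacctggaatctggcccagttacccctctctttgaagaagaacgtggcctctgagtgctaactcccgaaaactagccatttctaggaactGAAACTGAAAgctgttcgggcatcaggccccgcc
Irgm1, chr11:48871421-48871570, minus strand: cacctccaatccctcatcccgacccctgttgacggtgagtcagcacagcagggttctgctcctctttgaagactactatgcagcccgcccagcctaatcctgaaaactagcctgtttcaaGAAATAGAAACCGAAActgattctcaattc
Isg15, chr4:156200819-156200968, minus strand: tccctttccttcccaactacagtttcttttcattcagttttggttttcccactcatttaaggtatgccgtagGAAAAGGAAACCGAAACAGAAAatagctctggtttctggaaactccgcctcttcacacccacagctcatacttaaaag

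Receptors and regulators of innate sensing rose in part. Of 28 genes for Toll-like receptors and NF-kB factors 17 passed upward and 0 downward (1 downward without colitis mouse 7), with a median of 0.51. The inhibitor gene Nfkbie was at 6.53, 6.72, 6.47 and 6.76 in healthy mice and 8.22, 8.44, 8.15 and 7.51 in colitis (1.46 ± 0.19, adjusted p = 1.77e-05). The receptor genes for bacterial RNA and DNA, Tlr13 (1.66 ± 0.29) and Tlr9 (1.42 ± 0.23), the lipoprotein receptor gene Tlr2 (1.00 ± 0.15), the NF-kB cofactor gene Nfkbiz (0.99 ± 0.17) and the peptidoglycan sensor gene Nod2 (0.68 ± 0.12) rose.

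Genes that break down and rebuild the matrix rose, mostly in mice 3, 5 and 7. Of 18 matrix metalloproteinases and their relatives 14 rose and 0 fell, with a median of 0.88. Without colitis mouse 7, 9 rose. Matrilysin, Mmp7, was at 5.82, 5.85, 5.80 and 5.70 in healthy mice and 8.20, 7.57, 7.84 and 6.11 in colitis (1.64 ± 0.28, adjusted p = 0.000202). Stromelysin 2, Mmp10, was at 6.15 to 7.07 against 9.24, 8.99, 9.47 and 6.84 (2.03 ± 0.49, adjusted p = 0.00379). The list mean of mouse 8 was 7.20, against 6.99 to 7.17 in healthy mice and up to 8.55 in the other colitis mice. Of 21 extracellular matrix and wound repair genes 15 rose and 1 fell, with a median of 0.63. The collagen genes Col1a1 (0.91 ± 0.15), Col1a2 (0.80 ± 0.12) and Col4a1 (0.78 ± 0.13) rose. The collagen cross-linking enzyme gene Lox was at 7.15, 7.08, 6.91 and 6.83 against 9.07, 9.05, 9.19 and 8.02 (1.84 ± 0.29, adjusted p = 8.49e-05). The member that fell was the smooth muscle actin gene Acta2 (-0.35 ± 0.08), which also belongs to the muscle list.

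Wound-associated and antimicrobial genes rose more often than they fell. Some members, such as Ltf, Lcn2 and Ly6g, are also in the neutrophil list, and the cells of origin were not tested. Of 20 wound-associated epithelial genes 11 rose and 1 fell, with a median of 0.70 (0.67 without mouse 8). Beside Plet1 and Clca4b, the cornified envelope gene Sprr1a was at 6.92, 6.42, 6.10 and 7.09 in healthy mice and 8.92, 8.40, 8.35 and 8.02 in colitis (1.79 ± 0.23, adjusted p = 1.2e-05). Ly6d (2.01 ± 0.31), a surface antigen of squamous epithelium and early B cells, the apical membrane gene Prom1 (1.33 ± 0.16) and the annexin gene Anxa1 (0.72 ± 0.09) rose. The keratin gene Krt19, the member that fell, did so by 0.26 ± 0.08 on the log2 scale with overlapping groups, a call lost without healthy mouse 6 or 7 or colitis mouse 7 (adjusted p = 0.0607 to 0.0941). Of 18 antimicrobial and acute phase genes 10 rose and 2 fell, with a median of 1.54. Duox2, the epithelial hydrogen peroxide generator, was at 8.53, 8.03, 8.82 and 8.37 against 10.46, 10.40, 10.32 and 10.33, a similar level in all 4 colitis mice (1.94 ± 0.15, 3.85-fold, adjusted p = 1.16e-07). The protease inhibitor gene Slpi was at 6.91, 6.70, 6.67 and 6.70 against 8.77, 8.46, 9.22 and 8.26 (1.93 ± 0.27, adjusted p = 2.9e-05). The bactericidal phospholipase gene Pla2g2a (2.42 ± 0.43) and the goblet cell gene Retnlb, which encodes a secreted resistin-like protein, (2.30 ± 0.41) rose. Reg3b, a bactericidal lectin named after its values were seen, was at 5.44 to 5.58 against 8.01, 6.72, 6.62 and 5.36 (1.16 ± 0.51, adjusted p = 0.0942), and its relative Reg3g was too dim to be tested (3.17 to 3.75 and 4.47 to 6.40). The 2 members that fell were Mptx1 and the regenerating gene Reg4 (-0.67 ± 0.17, adjusted p = 0.00532), in which mouse 8 (11.65) lay within the healthy range of 11.61 to 11.88.

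Goblet cell genes moved both ways, 7 of 21 up and 4 down with a median of 0.07. The secreted peptide gene Spink4 was at 10.72, 10.24, 10.32 and 10.70 in healthy mice and 12.13, 11.76, 11.84 and 11.94 in colitis (1.42 ± 0.19, adjusted p = 1.73e-05). The mucin glycosylation gene Galnt12 (0.66 ± 0.11) and the membrane mucin gene Muc4 (0.79 ± 0.15) rose. The granule protein gene Clca1 (-0.38 ± 0.10) and the membrane mucin gene Muc3 (-0.30 ± 0.05) fell.

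Most genes for absorptive functions of the colonocyte fell. Of 27 absorptive colonocyte genes 18 fell and 2 rose, with a median of -0.81 (-0.89 without mouse 8). Car1, a carbonic anhydrase of the colon surface, was at 12.48, 12.78, 12.74 and 12.87 in healthy mice and 10.97, 11.20, 10.96 and 11.23 in colitis, similar in all 4 colitis mice (-1.63 ± 0.12, 3.09-fold lower, adjusted p = 9.57e-08). Slc26a3, the chloride and bicarbonate exchanger, was at 12.96, 13.03, 13.19 and 13.02 against 11.42, 10.86, 11.24 and 11.96 (-1.68 ± 0.16, adjusted p = 1.01e-06). The water channel gene Aqp8 was at 10.01, 10.25, 10.25 and 10.20 against 8.19, 7.67, 8.11 and 8.89 (-1.96 ± 0.20, adjusted p = 1.54e-06). The guanylin gene Guca2a, which sets salt and water secretion, fell by 0.81 ± 0.22 on the log2 scale. Krt20, a keratin of the differentiated surface, rose by 0.44 ± 0.09. The other member that rose was the uroguanylin gene Guca2b (0.26 ± 0.10, adjusted p = 0.0486), a call lost on leaving out any 1 of 7 arrays, healthy mice 5 to 7 and the 4 colitis mice (adjusted p = 0.0647 to 0.135). Epcam had -0.07 ± 0.06 (adjusted p = 0.433 in limma), and the part of epithelial cell number in these falls was not tested.

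Xenobiotic metabolism and drug transport genes fell in 22 of 28 cases and 1 rose, with a median of -0.82 (-0.83 without mouse 8). The drug efflux pump gene Abcb1a was at 11.54, 11.77, 11.77 and 11.72 in healthy mice and 9.45, 9.61, 9.91 and 10.64 in colitis (-1.79 ± 0.19, 3.46-fold lower, adjusted p = 2.76e-06). The sulfotransferase gene Sult1a1 was at 11.11, 11.09, 10.95 and 11.01 against 8.51, 8.47, 8.64 and 10.02 (-2.13 ± 0.23, adjusted p = 2.96e-06). Cyp2c55, a cytochrome P450 of the colon, was at 12.18, 12.48, 12.17 and 12.35 against 8.99, 7.11, 10.10 and 10.34, so that mouse 5 was the lowest and mouse 8 the highest colitis array (-3.16 ± 0.46, adjusted p = 4.25e-05). Cyp2c69 (-3.15 ± 0.51), with a colitis mean below the filter level, Cyp2f2 (-2.17 ± 0.25) and Cyp2d12 (-2.14 ± 0.24) fell as well, and probes for such P450 relatives may overlap. The glutathione transferase genes Gstm1 (-0.98 ± 0.12) and Gstt1 (-0.84 ± 0.08) and the epoxide hydrolase gene Ephx2 (-0.74 ± 0.10) fell, and the carboxylesterase gene Ces2e (0.92 ± 0.14) rose.

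Most genes of fatty acid oxidation, the tricarboxylic acid cycle and the respiratory chain fell, by smaller steps. Of 21 fatty acid oxidation and ketogenesis genes 18 fell and 0 rose, with a median of -0.50 (-0.53 without mouse 8). Acads, the short-chain dehydrogenase of butyrate oxidation, was at 9.45, 10.09, 9.53 and 9.56 in healthy mice and 8.90, 8.72, 8.74 and 8.86 in colitis (-0.85 ± 0.12, adjusted p = 3.78e-05). The thiolase gene Acaa2 (-0.85 ± 0.11), the dehydrogenase genes Hadh (-0.65 ± 0.10) and Acadvl (-0.49 ± 0.06), and the carnitine transferase gene Cpt2 (-0.57 ± 0.10) fell. Of 21 tricarboxylic acid cycle and respiratory chain genes 13 fell and 0 rose, with a median of -0.23, and without colitis mouse 5 the number that fell was 7. The citrate synthase gene Cs (-0.42 ± 0.06) and the isocitrate dehydrogenase gene Idh3a (-0.55 ± 0.10) fell. Glycolysis and hypoxia genes were mixed, with 7 of 18 up, 3 down and a median of 0.17, and 4 rose when any 1 of colitis mice 3, 5 and 7 was left out. The glycolytic regulator gene Pfkfb3 (1.27 ± 0.30), the lactate exporter gene Slc16a3 (0.81 ± 0.15) and the vasodilator gene Adm (0.99 ± 0.17) rose, while Car9 (-0.58 ± 0.09), a hypoxia-induced carbonic anhydrase, fell.

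Members of the enteroendocrine, stem cell and Hox lists fell where they passed. Of 14 enteroendocrine markers 10 fell and 0 rose, with a median of -0.47, and without colitis mouse 3 the number was 6. Tph1, the serotonin-producing hydroxylase, was at 7.86, 7.48, 7.74 and 7.63 in healthy mice and 6.12, 6.59, 6.49 and 7.46 in colitis, mouse 8 lying just below the healthy mice (-1.01 ± 0.19, adjusted p = 0.000402). The granin gene Chga (-0.73 ± 0.12), the peptide hormone gene Insl5 (-0.84 ± 0.17) and the somatostatin gene Sst (-0.82 ± 0.17) fell. Of 19 stem cell and Wnt target genes 9 fell and 0 rose, with a median of -0.22, and 5 fell without colitis mouse 5. The stem cell transcription factor gene Ascl2 was at 6.85, 7.17, 7.12 and 6.84 against 6.09, 6.12, 6.22 and 6.26 (-0.82 ± 0.15, adjusted p = 0.000355). The Wnt-limiting ubiquitin ligase genes Znrf3 (-0.51 ± 0.08) and Rnf43 (-0.52 ± 0.11) fell. The receptor gene Lgr5 of crypt base stem cells had -0.68 ± 0.20 (adjusted p = 0.0134), a call lost without colitis mouse 5 (adjusted p = 0.0594). Of 12 posterior Hox genes, transcription factors that mark position along the gut, 8 fell and 0 rose, with a median of -0.45. The number was 4 without healthy mouse 5 or 6 and 5 without colitis mouse 3 or 7. Hoxb13 was at 8.71, 8.82, 8.72 and 8.77 against 7.79, 7.88, 7.92 and 8.32 (-0.77 ± 0.10, adjusted p = 2.21e-05), and Hoxb9 fell by 0.61 ± 0.11 on the log2 scale.

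Proliferation and junction genes changed less. Of 24 cell cycle genes 6 rose and 0 fell, with a median of 0.33. That number was 12 without healthy mouse 7, 10 without colitis mouse 8, and 3 without healthy mouse 6 or colitis mouse 5. The ribonucleotide reductase gene Rrm2 was at 6.85, 6.73, 6.51 and 7.19 in healthy mice and 7.72, 7.76, 7.45 and 7.45 in colitis (0.77 ± 0.16, adjusted p = 0.00105). Of 22 tight junction and adhesion genes 6 fell and 2 rose, with a median of -0.16. The occludin gene Ocln was at 10.79, 10.85, 10.73 and 10.69 against 10.03, 10.03, 10.11 and 10.63, mouse 8 lying close to the healthy mice (-0.57 ± 0.13, adjusted p = 0.00234). The scaffold gene Tjp1 (-0.35 ± 0.07) and the plakin gene Ppl (-0.32 ± 0.07) fell, and the desmocollin gene Dsc2 (0.66 ± 0.08) rose. The other member that rose, the cadherin gene Cdh17 (0.17 ± 0.06, adjusted p = 0.0405), lost its call on leaving out any 1 of the 8 arrays (adjusted p = 0.0565 to 0.119).

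Most genes of the endoplasmic reticulum folding machinery rose. Of 21 unfolded protein response genes 15 rose and 0 fell, with a median of 0.44 (0.47 without mouse 8), 3 had a change not above 0, and 1 fell without mouse 8. The list mean of mouse 8 lay at 103% of the change of the other 3 mice. Hsp90b1, the chaperone GRP94, was at 11.82, 11.69, 11.69 and 11.80 in healthy mice and 12.36, 12.45, 12.43 and 12.39 in colitis (0.66 ± 0.07, 1.58-fold, adjusted p = 1.67e-06). The colitis arrays lay within a narrow band above all healthy arrays. The disulphide isomerase gene Pdia6 was at 10.30, 10.16, 10.05 and 10.32 against 10.90, 10.91, 10.95 and 10.66 (0.65 ± 0.08, adjusted p = 1.12e-05). Creld2, a secreted chaperone, was at 9.20, 9.15, 9.28 and 9.29 against 10.24, 10.06, 10.24 and 9.84 (0.86 ± 0.11, adjusted p = 1.5e-05). The chaperone cofactor genes Sdf2l1 (0.92 ± 0.10) and Dnajc3 (0.48 ± 0.06) and the degradation factor gene Edem1 (0.57 ± 0.08) rose. Plasma cells and goblet cells secrete heavily and use the same machinery, and the part of the higher B and plasma cell markers in this rise was not tested. The endoplasmic reticulum stress response element, a composite site searched on both strands as CCAAT, any 9 bases, CCACG, was present in 0.15% of all promoters (16 of 10664) and in 7 of the 18 promoters of this list with a single window. It was present in 0.644% of promoters of all genes that rose and in 0.0597% of those that fell. Promoters of 3 members are shown in the same way, with the match in capitals, on the minus strand of the gene in Hsp90b1 and Creld2. A second match in Hsp90b1 starts 212 bases before the start site, outside the stretch shown.
Hsp90b1, chr10:86705445-86705594, minus strand: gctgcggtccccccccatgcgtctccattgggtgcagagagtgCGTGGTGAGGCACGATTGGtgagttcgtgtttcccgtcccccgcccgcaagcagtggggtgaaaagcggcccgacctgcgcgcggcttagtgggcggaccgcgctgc
Pdia6, chr12:17266439-17266588, plus strand: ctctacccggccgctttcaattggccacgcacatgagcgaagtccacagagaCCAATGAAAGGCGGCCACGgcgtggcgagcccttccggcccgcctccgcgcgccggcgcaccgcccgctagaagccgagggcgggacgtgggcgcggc
Creld2, chr15:88819496-88819645, plus strand: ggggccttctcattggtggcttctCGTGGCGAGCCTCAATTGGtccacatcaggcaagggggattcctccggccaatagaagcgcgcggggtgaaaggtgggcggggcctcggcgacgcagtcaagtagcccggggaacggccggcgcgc

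Markers of the muscle wall and its nerves were lower. Of 17 smooth muscle markers 12 fell and 0 rose, with a median of -0.48 (-0.58 without mouse 8). The myosin gene Myh11 was at 12.15, 12.20, 12.14 and 12.03 in healthy mice and 11.59, 11.53, 11.37 and 12.01 in colitis (-0.50 ± 0.15, adjusted p = 0.0163), a call lost without colitis mouse 7 (adjusted p = 0.065). The calcium store gene Casq2 (-0.82 ± 0.16), the desmin gene Des (-0.54 ± 0.13), the kinase gene Mylk (-0.48 ± 0.11) and the transcription cofactor gene Myocd (-0.48 ± 0.12) fell. Of 17 enteric neuron markers 10 fell and 1 rose, with a median of -0.36. The synaptic gene Snap25 was at 9.48, 9.12, 9.21 and 8.99 against 8.23, 8.33, 8.07 and 8.54, below every healthy mouse (-0.91 ± 0.13, adjusted p = 4.47e-05). The neuronal genes Uchl1 (-0.67 ± 0.10) and Stmn2 (-0.61 ± 0.10) fell. The exception was the substance P gene Tac1, at 7.45, 7.03, 7.29 and 7.10 against 9.19, 8.90, 8.59 and 8.12 (1.48 ± 0.24, adjusted p = 0.000126). The mean of the T cell list was higher in the same arrays (6.17 to 6.27 in healthy and 7.15 to 7.61 in colitis mice), and the part of leucocyte RNA in these falls was not tested.

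Among 15 markers of interstitial cells and fibroblasts 4 rose and 4 fell, with a median of 0.15, and 2 fell without any 1 of healthy mice 4 and 5 and colitis mice 3, 5 and 7. The interstitial cell channel gene Ano1 (-0.69 ± 0.13) fell, and the bone morphogenetic protein inhibitor gene Grem1 (1.33 ± 0.30) and the growth factor binding gene Igfbp5 (1.44 ± 0.33) rose. Grem1 was at 9.62, 9.54, 9.29 and 9.42 in healthy mice and 11.12, 11.09, 11.17 and 9.81 in colitis, with mouse 8 near the healthy mice. Of 18 endothelial markers 6 rose and 0 fell, with a median of 0.25, among them the adhesion gene Pecam1 (0.70 ± 0.17) and the clotting factor gene Vwf (0.48 ± 0.12). Of 13 adipocyte markers 2 fell and 0 rose, with a median of -0.58, the lipid droplet gene Plin4 (-0.56 ± 0.14) and the gluconeogenic gene Pck1 (-1.23 ± 0.30). Their list mean was spread over 7.79 to 8.57 in healthy and 7.12 to 7.93 in colitis mice. The 5 tested erythroid and platelet markers gave 0 calls, while 1 of 8 enteric glia, 1 of 7 mesothelial and 1 of 10 squamous epithelium markers fell and 1 of 7 lymphatic markers rose. Like the adipocyte count, these single calls lie near the shares of all genes that fell (16.1%) or rose (13.6%). By count they do not set these lists apart from genes in general. The glia count was 0 without healthy mouse 5 or 6 or colitis mouse 3 or 7 and 2 without colitis mouse 5. The mesothelial count was 0 without healthy mouse 6 or 7 or colitis mouse 7, and the lymphatic count 2 without healthy mouse 4 or colitis mouse 8. Of 12 tuft cell markers 2 rose and 3 fell, and 1 fell without any 1 of healthy mice 5 and 6 and colitis mice 3 and 5.

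Of 14 genes of prostaglandin and bile acid signalling 2 rose and 4 fell, with a median of 0. The prostaglandin synthase gene Ptgs2 was at 8.32, 7.93, 8.11 and 7.70 in healthy mice and 9.06, 9.83, 11.52 and 9.94 in colitis (2.07 ± 0.57, adjusted p = 0.00883), while Hpgd, which degrades prostaglandins, was at 10.94, 10.88, 10.63 and 10.93 against 9.84, 9.67, 9.86 and 10.53 (-0.88 ± 0.14, adjusted p = 0.000137). The groups did not overlap in either gene. Of the prostaglandin E synthases, Ptges rose by 0.37 ± 0.10, and Ptges2 had -0.33 ± 0.10 (adjusted p = 0.0162), a call lost without healthy mouse 6 or 7 (adjusted p = 0.0559 and 0.0542). The vitamin D receptor gene Vdr (-0.74 ± 0.12) and the bile acid importer gene Slc10a2 (-0.91 ± 0.25) fell. Of 16 circadian clock genes 7 fell and 3 rose, with a median of -0.24, and 4 fell without healthy mouse 5. Nr1d1, the clock repressor REV-ERB alpha, was at 9.83, 10.35, 10.15 and 10.14 against 8.66, 8.33, 8.21 and 8.89 (-1.60 ± 0.21, 3.03-fold lower, adjusted p = 1.94e-05). Per3 (-0.54 ± 0.10), a period gene, fell, and Nfil3 (0.78 ± 0.14), a repressor that opposes it, rose. The part of the hour of sampling in these clock gene changes was not tested. Of 13 reference genes 6 rose and 1 fell, with a median of 0.10 (0.06 without healthy mouse 5), and 0 fell without any 1 of healthy mice 4, 5 and 7 and colitis mice 3, 5 and 7.

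Mouse 8 carried the colitis response unevenly. To place it without using its own values for the choice, genes changed by at least 2-fold were called in a fit that left it out. Of 675 such higher genes, 664 were above the healthy mean and 624 outside the healthy range in mouse 8, at a median of 56.1% of the change in the other 3 mice. Of 214 lower genes, 214 were below the healthy mean and 208 outside the healthy range, at a median of 51.6%. The gap between mouse 8 and its group differed between lists. Its list mean stood at 8.95% of the change of the other 3 mice for matrix metalloproteinases, 15.8% for neutrophil markers, 30.4% for type I interferon genes, 34.8% for cytokines and 42.2% for interferon gamma genes. It stood at 56.2% for macrophage markers, 60.1% for absorptive colonocyte genes, 75.0% for T cell markers, 78.4% for wound-associated epithelial genes, 93.1% for B and plasma cell markers and 103% for the unfolded protein response. Cd177 was higher in mouse 8 (11.37) than in the other colitis mice, although most neutrophil genes were low in it, and Cd177 can also be expressed by epithelium. Immediate early genes ran the other way, with a list mean 0.92 above the healthy mean in mouse 8 and 0.20 above it in the other 3. The transcription factor genes Fos and Egr1, named after their values were seen, were at 10.33 and 9.40 in mouse 8, against 7.97 to 8.86 and 6.59 to 7.65 in the other 7 mice. Of 17 immediate early genes 4 rose and 1 fell, with a median of 0.42 (0.27 without mouse 8), and 0 fell without healthy mouse 4 or colitis mouse 5 or 7. Jun (0.58 ± 0.11) and Ier3 (1.17 ± 0.28) were among those that rose. No label gives the severity of colitis in single mice.

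**Figure D3:**
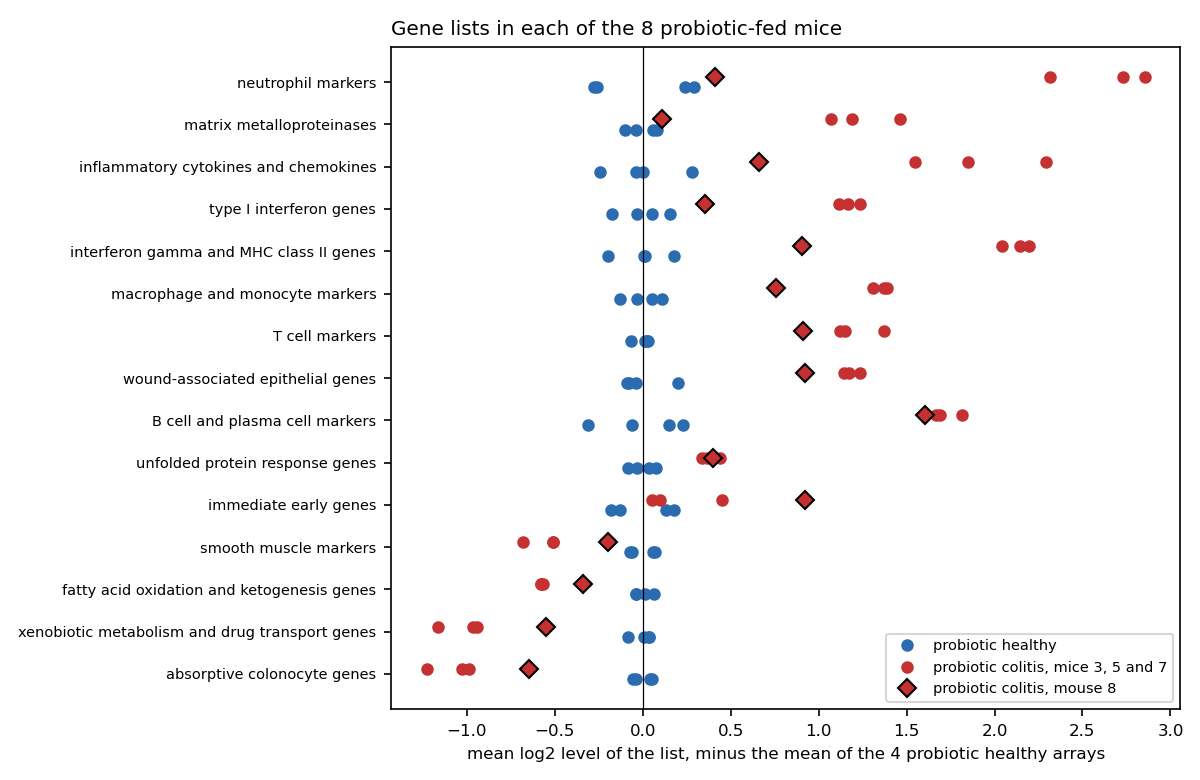
Mean log2 level of 15 gene lists in each of the 8 mice, minus the mean of the 4 healthy arrays, for healthy mice (blue), colitis mice 3, 5 and 7 (red) and mouse 8 (outlined diamond). Mouse 8 lay close to the healthy mice for metalloproteinases (0.11) and neutrophil markers (0.42), with the other colitis mice for B and plasma cell markers (1.61), and above them for immediate early genes (0.92).

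The same comparison in mice given saline showed where the colitis response on probiotic was similar. In saline mice 1957 genes rose (11.7%) and 2404 fell (14.4%). Of these, 1385 rose in both (60.7% of the genes that rose on probiotic and 70.8% of those that rose on saline) and 1629 fell in both (60.6% and 67.8%). The 2 changes share no array, and across the 16739 genes, which are not independent, their Pearson correlation was 0.89. Plet1 rose by 4.91 ± 0.35 on probiotic and 4.82 ± 0.35 on saline, Car1 changed by -1.63 ± 0.12 and -1.26 ± 0.12, and Hsp90b1 rose by 0.66 ± 0.07 and 0.55 ± 0.07.

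**Figure D4:**
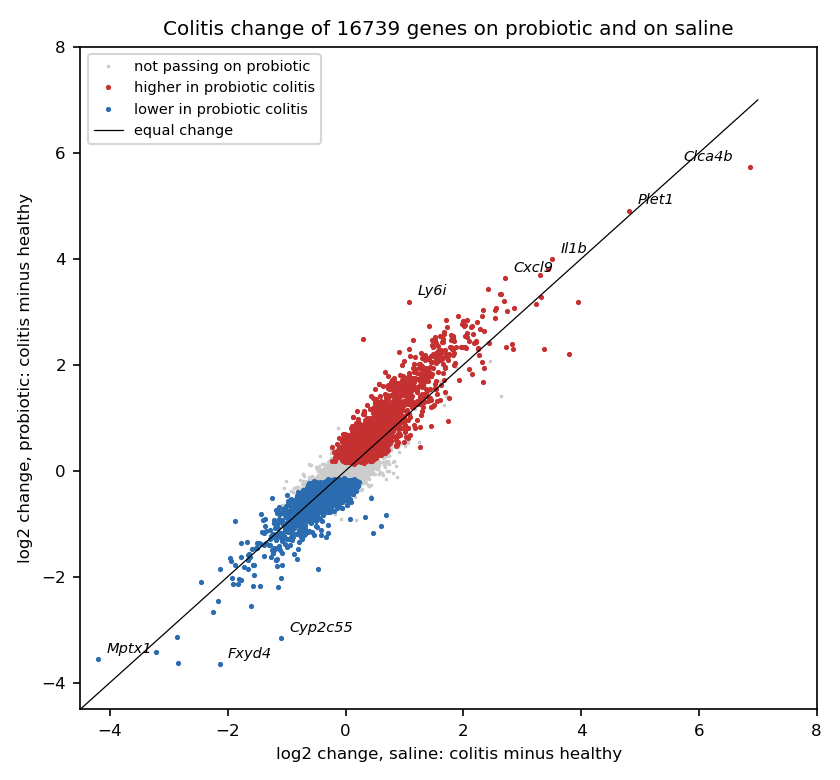
Log2 change from healthy to colitis of 16739 genes in mice on probiotic (vertical) and on saline (horizontal), with genes that rose on probiotic in red, that fell in blue and that did not pass in grey. The changes correlated (r = 0.89), the line marks equal change, and Ly6i (3.19 on probiotic, 1.08 on saline) and Cyp2c55 (-3.16 and -1.09) lie off it.

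The difference between the 2 colitis changes (the interaction of colitis and probiotic) gave 0 genes in either direction in limma (0% and 0%), with a smallest adjusted p of 0.185. At an unadjusted p under 0.05, 720 genes had a higher change on probiotic (4.30%) and 726 a lower one (4.34%). If no gene differed, a share of 0.05 would be reached by both directions together, and less by each. Both directions together exceeded that share, in genes that are not independent. Its median was 0.00225 over all genes, with 50.5% of them above 0, and 0.204 over the genes that rose on probiotic, which are chosen by the same change. Lists differed in this measure. It was above 0 in 20 of 22 macrophage and monocyte markers (median 0.60), in all 21 interferon gamma genes (median 0.46), in all 19 B and plasma cell markers (median 0.51) and in all 17 T cell markers (median 0.34). It was above 0 in 14 of 18 type I interferon genes (median 0.11; 9, median -0.01, without saline colitis mouse 6), 15 of 21 unfolded protein response genes (median 0.09) and 3 of 21 goblet cell genes (median -0.16). Saline colitis mouse 6 had list means nearer to the healthy mice than the other 3 saline colitis mice, for example 7.60 against 8.05 to 8.54 for macrophage and 6.33 against 6.77 to 7.61 for T cell markers. Without it the medians were 0.46 for macrophage (20 of 22 above 0), 0.32 for interferon gamma (18 of 21), 0.34 for B and plasma cell (19 of 19) and 0.23 for T cell genes (15 of 17). For cytokines the interaction was above 0 in 17 of 18 genes (median 0.31), and in 9 (0.01) without that mouse. For neutrophil markers it was above 0 in 15 of 18 (0.38), and in 10 (0.09) without that mouse. With mouse 8 and saline healthy mouse 2 also left out, the medians were 0.63 for macrophage and 0.59 for interferon gamma genes. They were 0.55 for neutrophil, 0.33 for cytokine, 0.24 for T cell and 0.23 for B and plasma cell genes. These are descriptions, and members of a list are not independent.

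The genes nearest to a difference are those with the smallest p, none of which passed. Prdm1, the regulator of plasma cell and effector T cell fate, was at 6.84, 6.78, 6.94 and 7.08 in saline healthy mice 2, 4, 6 and 7 and at 7.59, 6.91, 7.69 and 7.44 in saline colitis mice 5, 6, 7 and 10. On probiotic it went from 6.83, 6.71, 6.74 and 6.75 to 8.35, 8.12, 8.57 and 8.17, above all saline colitis mice (interaction 1.05 ± 0.18, adjusted p = 0.185). Aif1 changed by 1.40 ± 0.12 on probiotic and 0.44 ± 0.12 on saline (interaction 0.97 ± 0.17, adjusted p = 0.185). The purine receptor gene P2rx7 was at 8.07 to 8.24 and then 8.65 to 8.91 on probiotic, and at 8.04 to 8.32 and 7.95 to 8.27 on saline (interaction 0.58 ± 0.11, adjusted p = 0.193). In the other direction stood the actin-binding gene Rflnb (-0.50 ± 0.10, adjusted p = 0.193), the sialyltransferase gene St3gal3 (-0.56 ± 0.11, adjusted p = 0.258) and the RNA-binding gene Mex3c (-0.42 ± 0.09, adjusted p = 0.299). Mouse 8 decided how many genes passed, for without it 30 had a higher and 15 a lower colitis change on probiotic. Without it Hao2, at 8.48 to 8.72 in mice 3, 5 and 7 and 10.41 in mouse 8, had an interaction of -1.50 ± 0.15 (adjusted p = 0.000154), against -1.05 ± 0.38 (adjusted p = 0.505) with it. Ly6i had 3.01 ± 0.40 (adjusted p = 0.00462), Fcgr1 1.38 (adjusted p = 0.043), Aif1 1.08 ± 0.16 (adjusted p = 0.00944) and Prdm1 1.09 ± 0.19 (adjusted p = 0.033). Saline healthy mouse 2 and saline colitis mouse 6 stood apart too, and without these and mouse 8 the counts were 12 and 1.

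**Figure D5:**
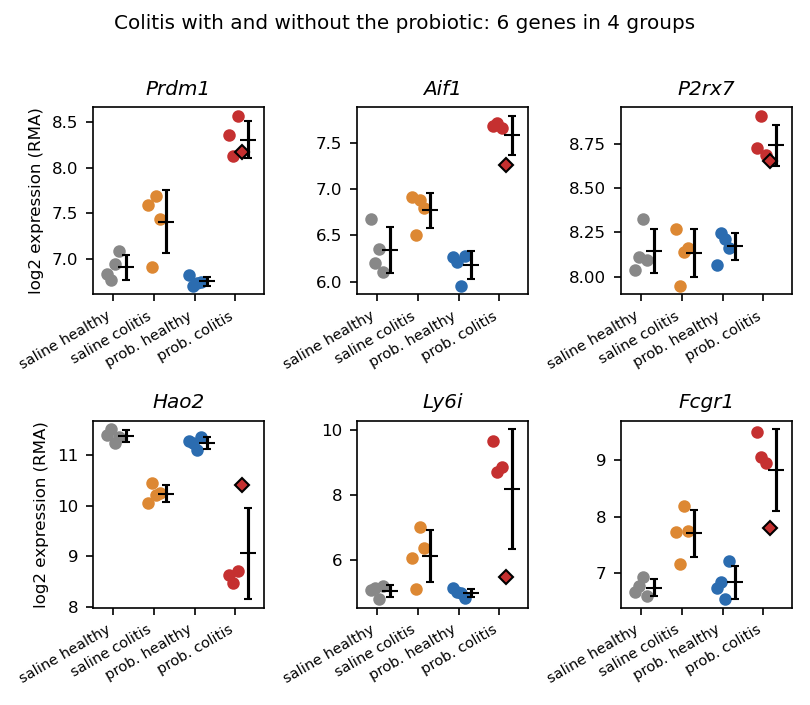
Log2 expression (RMA) of 6 genes in the 4 groups, 1 point per mouse, with bars for mean ± SD (n = 4) and mouse 8 as an outlined diamond. Prdm1 and P2rx7 in probiotic colitis lay above all saline colitis mice, mouse 8 included, while mouse 8 (5.50) fell within the saline colitis range for Ly6i (5.10 to 7.01), and none of the 6 genes passed the test of the difference with all mice included.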

How the data were processed

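Total RNA was hybridised to 1 array per mouse. The deposited log2 values were made by the authors with RMA, per the submitters' processing notes. Its version is not stated there. Of 41801 probe sets, 29195 had values, and 22360 of these had 1 gene symbol in the platform annotation, 1013 several and 5822 none. Probe sets with 1 gene symbol that were above 5.30 (the 25th percentile) on at least 4 of the 20 arrays were kept. Each gene was then represented by its kept probe set with the highest mean over the 20 arrays, leaving 16739 genes. A group-means model over all 20 arrays was fitted with limma 3.58.1 in R 4.3.3, with Benjamini-Hochberg adjustment over all genes, and tested on simulated data.

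Probiotic colitis was set against probiotic healthy, saline colitis against saline healthy, and the difference of both changes was tested. The labels call the 4 mice of a condition biological replicates. Genes were named by size (15 each way, groups not overlapping), by p within each list (up to 6, and 3 the opposite way), as the 3 nearest each way for the difference, or as tissue markers. Exceptions are stated where they occur. Predicted genes, small noncoding RNA genes and immunoglobulin and T cell receptor segments were left out of the rankings by size and for the difference. They were still counted among the genes tested. The members and lists were chosen with earlier results of these data known. Promoters came from RefSeq (GRCm38.p6), and 2401 genes with several windows and 3674 with none were not searched. Alternatives covered filters, normalization, weights, probe set choice, blocks and left-out arrays.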

Additional observations from a re-analysis of the deposited data

Results flagged for a closer look

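Among 406 groups of 4 arrays (203 named genes in the healthy and the colitis mice), 38 held 1 array whose gap to the nearest other was above Dixon's critical value for 4 samples. Among independent groups of normal values, chance gives such a gap in about 1 in 20. These groups share the same mice, and the genes were named by their change or p or after their values were seen. The count therefore cannot be set against that rate. Probiotic colitis mouse 8 was the array with the gap in 34 of the 38 groups. It was below the other colitis mice in Nos2 at 8.53 (others 10.64 to 10.75), Cxcl9 at 8.80 (others 11.17 to 11.33) and Gbp8 at 7.94 (others 9.09 to 9.28). Lower values stood in Cxcl5 at 7.47 (others 9.70 to 9.91), Csf3r at 7.16 (others 9.29 to 9.50) and Cxcr2 at 6.71 (others 9.22 to 9.73). The same held for Aif1 at 7.26 (others 7.66 to 7.72), Clec7a at 8.61 (others 9.63 to 9.72) and Lyz2 at 10.81 (others 11.71 to 11.82). Mouse 8 was also lowest in Sirpa at 8.54 (others 9.29 to 9.41), Irf8 at 8.59 (others 9.14 to 9.24) and Tap1 at 9.28 (others 10.38 to 10.53). Values below the group were found for Nlrc5 at 7.43 (others 8.37 to 8.47), Zbp1 at 9.36 (others 10.34 to 10.53) and Oas2 at 7.84 (others 8.80 to 8.87). It was the low array for Prom1 at 9.45 (others 10.16 to 10.24), Slc16a3 at 6.98 (others 7.71 to 7.85) and Sdf2l1 at 8.67 (others 9.01 to 9.08). Further low values were Lox at 8.02 (others 9.05 to 9.19), Col4a1 at 8.59 (others 9.11 to 9.15) and Grem1 at 9.81 (others 11.09 to 11.17). Also low were Igfbp5 at 9.55 (others 11.14 to 11.29), Ptges at 7.14 (others 7.51 to 7.57) and Ptprc at 10.31 (others 10.92 to 10.95). Mouse 8 was above the other colitis mice, toward the healthy level, in Mptx1 at 9.96 (others 6.70 to 6.96), Sycn at 10.21 (others 9.26 to 9.41) and Hao2 at 10.41 (others 8.48 to 8.72). It was likewise higher in Cyp2f2 at 7.91 (others 6.61 to 6.69), Gsdmc3 at 9.44 (others 8.09 to 8.29) and Cyp2d12 at 7.74 (others 6.60 to 6.78). Higher values stood in Sult1a1 at 10.02 (others 8.47 to 8.64), Idh3a at 10.32 (others 9.81 to 9.88) and Ocln at 10.63 (others 10.03 to 10.11). The remaining high values were Vdr at 11.33 (others 10.70 to 10.80).

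The other 4 groups pointed to other arrays. Mzb1 was at 9.12 in probiotic colitis mouse 7, against 8.69 to 8.72 in the other 3. Mcpt2 was at 4.78 in probiotic healthy mouse 4, against 4.32 to 4.37 in the other 3. H2-Eb1 was at 8.55 in probiotic healthy mouse 6, against 8.72 to 8.75 in the other 3. Slpi was at 6.90 in probiotic healthy mouse 4, against 6.67 to 6.70 in the other 3. Of 3887 tested probe sets without a single gene symbol, which entered no gene comparison, 276 were higher and 329 lower in probiotic colitis in limma.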

How the results depend on the processing

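No gene called in one direction was called in the other under an alternative, and 1 called gene had the opposite sign without a call, Slc29a3 (0.36, and -0.06 when probe sets were averaged, adjusted p = 0.516 in limma). The genes that rose numbered 1859 to 2960 and those that fell 2001 to 3698 over the alternatives, against 2280 and 2689, and leaving out 1 of the 8 arrays gave 1875 to 2457 and 2111 to 2850. A fit of the compared groups alone without probiotic colitis mouse 8, chosen after seeing the data, gave 2677 and 3177. The test of the difference between probiotic and saline changed most. With array weights 5 genes had a higher colitis change on probiotic. Without the 3 arrays that stand apart (saline healthy mouse 2, saline colitis mouse 6 and probiotic colitis mouse 8) 12 had a higher and 1 a lower change. Leaving out 1 array at a time gave 0 to 30 higher and 0 to 15 lower, and only the fit without probiotic colitis mouse 8 gave any. The cause was not tested. Equal animal numbers are different mice and did not deviate together (r = 0.0149 and -0.118), and the fit with the replicate number as a block gave 1859 higher and 2001 lower genes and 1 gene with a lower change on probiotic. Array number and dim probe sets limit what small changes can show.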
